A study of Homo sapiens with 4 samples.

Results

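Fatty acid oxidation is described here through 32 genes, taken by symbol as the carnitine shuttle, the acyl-CoA dehydrogenases, the later enzymes of the cycle, the electron transfer proteins, peroxisomal enzymes and transporters, a ketone body enzyme and long-chain acyl-CoA synthetases. All 32 symbols were found among the 39306 gene names of the deposited tables. Total RNA depleted of ribosomal RNA was sequenced from MHCC97H, a human liver cancer cell line, in 4 libraries. The 2 wild-type libraries came from cells with unaltered HNRNPM, and the 2 knockdown libraries came from cells in which a short hairpin RNA lowered HNRNPM, an RNA-binding protein that regulates splicing. The labels do not say whether the wild-type cells carried a control hairpin, whether both knockdown libraries carried the same hairpin, or whether the replicates were separate cultures. The p-values therefore reflect the spread between the libraries alone, and that spread may be technical.

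Long-chain fatty acids are activated to acyl-CoA by ACSL enzymes and carried into mitochondria by the carnitine shuttle, in which CPT1 is the step inhibited by malonyl-CoA. Inside, each turn of the cycle removes an acetyl unit through a dehydrogenase, a hydratase, a hydroxyacyl-CoA dehydrogenase and a thiolase, and electrons of the first step pass through the electron transfer flavoprotein to the respiratory chain. Peroxisomes shorten very long and branched chains, and the liver is the main organ that turns the acetyl-CoA produced into ketone bodies.

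Levels are given as scaled RPKM, reads per kilobase of annotated exon relative to the reads assigned in that library, divided by a scaling factor for the composition of each library (TMM, the trimmed mean of M values). The knocked-down gene was measured first. HNRNPM stood at 52.1 and 53.1 scaled RPKM in the wild-type libraries and at 21.2 and 20.1 in the knockdown libraries, 39.2% of the wild-type mean (log2 fold change -1.35 ± 0.07, SE; limma adjusted p = 0.00270). The libraries held 18317579 and 19659106 assigned reads for wild type and 12708165 and 11498663 for knockdown. Of the hepatocyte markers 3 of 7 tested fell, most of all ALB, at 5.44 and 6.46 scaled RPKM in wild type and 1.70 and 1.75 in knockdown. The other 4 did not pass, among them APOH, the most abundant. Estimates were below 0 for 6 and above 0 for 1, HNF4A, at 6.61 and 6.49 in wild type and 7.64 and 7.37 in knockdown. The summed level of the hepatocyte list was 48.5 and 47.8 in wild type and 37.5 and 36.4 in knockdown. Of 4 epithelial markers 3 were higher in both knockdown libraries and 1 passed: KRT18, a keratin of simple epithelia, stood at 345 and 286 in wild type and 426 and 441 in knockdown. The summed level of the 4 was 894 and 809 in wild type and 1049 and 1105 in knockdown. The summed level of 6 fibroblast markers was 1.29 and 1.51 in wild type and 3.62 and 3.52 in knockdown, with 3 of the 6 higher. Most of that sum was LUM, at 1.09 and 1.22 against 2.90 and 2.64. COL1A1 and PDGFRB, which also passed, had 5 to 19 reads per library. The sum of 4 endothelial markers was 9.71 and 10.5 against 6.59 and 7.07, with 2 of 3 tested lower. Most of it was PECAM1, at 8.68 and 9.27 against 5.67 and 5.88, and KDR did not pass. Over all tested genes, 24.9% passed the same test. PTPRC, the defining marker of blood cells, was at 0 in 3 of the 4 libraries. The part of these markers in the results below was not tested, and in bulk RNA fewer cells of a type and less RNA per cell cannot be told apart.

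After HNRNPM knockdown, 4 of the 31 members that could be tested fell, 1 rose and 26 did not pass the test. CPT1A, the liver form of the malonyl-CoA-sensitive carnitine palmitoyltransferase, ACSL3, an acyl-CoA synthetase of the endoplasmic reticulum and lipid droplets, ECI1, a mitochondrial enoyl-CoA isomerase, and ABCD3, a peroxisomal transporter, were lower. ETFB, the beta subunit of the electron transfer flavoprotein, was higher. A gene was called where limma, fitted over all genes, gave an adjusted p under 0.05. Over all 20221 tested genes, 24.9% were called, 11.1% higher and 13.8% lower, while 16.1% of the tested members were called. The split over all genes, 2240 higher and 2792 lower, turned to 2783 higher and 2234 lower without the TMM factors, while the members stayed at 1 higher and 4 lower. The remaining member, ACADL, the long-chain acyl-CoA dehydrogenase, had 1 read over the 4 libraries and was not tested.

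The median log2 fold change of the tested members was -0.10, beside -0.03 over all tested genes, with 21 members below 0 and 10 above. Both wild-type libraries lay on one side of both knockdown libraries for 22 members (71.0%), 6 of them with knockdown above and 16 with knockdown below. The same held for 67.6% of all tested genes, 31.0% higher and 36.6% lower in knockdown, so the members' share was near the background. The median size of change, without its sign, was 0.20 among members and 0.28 among all tested genes, and the median standard error was 0.10 and 0.13. For 21 of the 31 members the unadjusted 95% interval of the fold lay within 1.5-fold in either direction. The summed level of all members was 366 in both wild-type libraries and 359 and 355 in the knockdown libraries. ETFB, which rose, made up 19.7% of that sum in each wild-type library and 27.1% and 27.6% in the knockdown libraries. The near-equal sums therefore do not show that the other members kept their level.

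**Figure D1:**
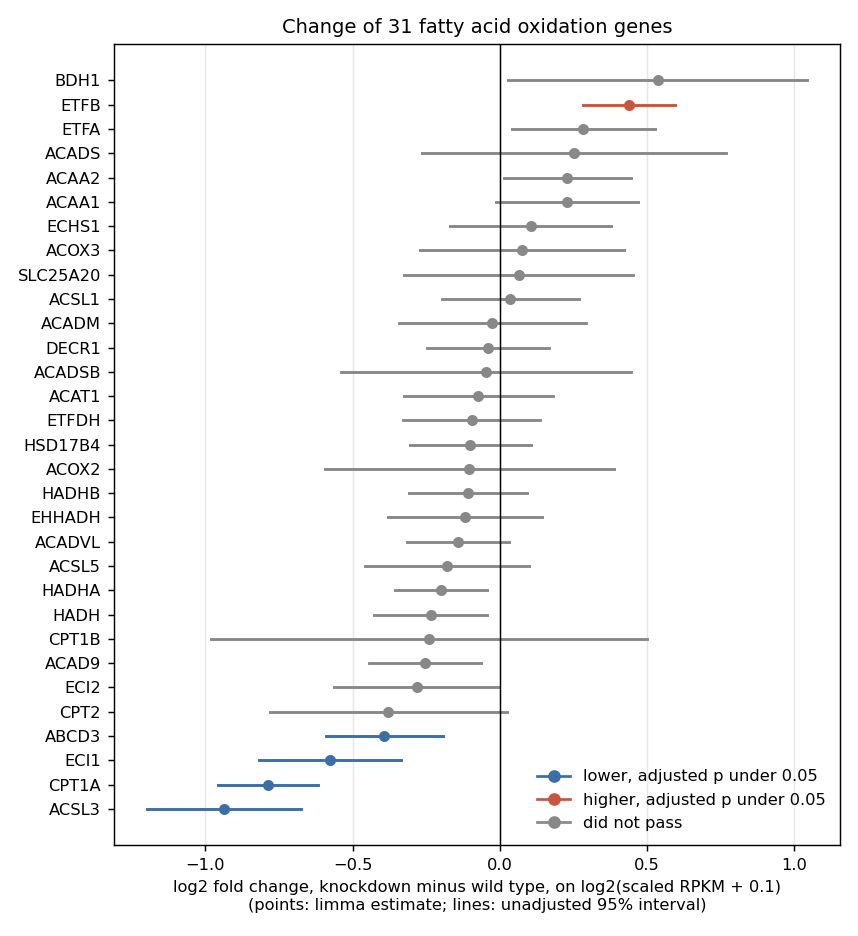
Log2 fold change (knockdown minus wild type, horizontal axis) of the 31 tested members, ordered by size; points are limma estimates and lines unadjusted 95% intervals. ACSL3 (-0.94), CPT1A (-0.79), ECI1 (-0.58) and ABCD3 (-0.39) lie below 0 and ETFB (0.44) above it with an adjusted p under 0.05; the 26 grey members did not pass.

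**Figure D2:**
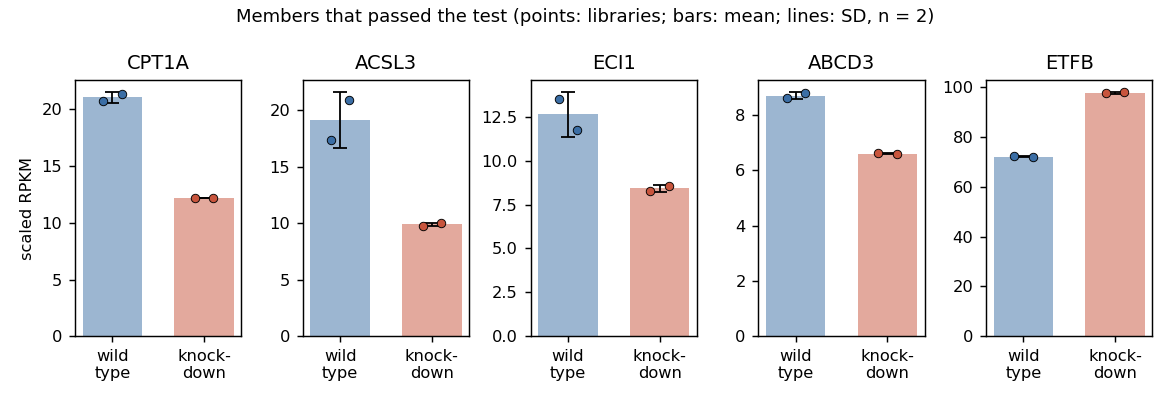
Scaled RPKM (vertical axes, each from 0) of the 5 members that passed; points are libraries, bars group means and lines the SD over 2 libraries. Both knockdown points lie below both wild-type points for CPT1A, ACSL3, ECI1 and ABCD3 and above them for ETFB.

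A stretch before a RefSeq start of each of these 5 genes is shown because they are the members that passed. The stretch of ECI1 lies within the span of the gene as the files give it, and the other 4 lie before the span. They were taken from the 250 bases before a RefSeq start (GRCh38.p14), left out where GENCODE annotates an exon, and are written 5′ to 3′ on the strand of the gene. Capitals mark GC boxes (GGGCGG, or CCGCCC on the opposite strand), a common element of promoters without a TATA box.
CPT1A, chr11:68844411-68844527, minus strand: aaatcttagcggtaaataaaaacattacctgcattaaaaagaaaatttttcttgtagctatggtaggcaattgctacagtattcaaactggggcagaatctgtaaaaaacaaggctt
ACSL3, chr2:222860786-222860933, plus strand: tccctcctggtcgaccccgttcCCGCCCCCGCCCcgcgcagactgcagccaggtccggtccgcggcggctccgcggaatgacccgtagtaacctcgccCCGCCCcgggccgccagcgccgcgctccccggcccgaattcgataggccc
ECI1, chr16:2251615-2251684, minus strand: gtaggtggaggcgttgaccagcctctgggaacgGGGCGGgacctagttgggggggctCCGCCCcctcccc
ABCD3, chr1:94418139-94418388, plus strand: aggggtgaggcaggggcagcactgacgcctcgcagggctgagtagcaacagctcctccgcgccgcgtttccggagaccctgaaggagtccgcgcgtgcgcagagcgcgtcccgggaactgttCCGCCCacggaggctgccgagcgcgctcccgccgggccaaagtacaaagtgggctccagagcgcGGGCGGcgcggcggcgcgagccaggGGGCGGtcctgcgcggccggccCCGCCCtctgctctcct
ETFB, chr19:51366419-51366638, minus strand: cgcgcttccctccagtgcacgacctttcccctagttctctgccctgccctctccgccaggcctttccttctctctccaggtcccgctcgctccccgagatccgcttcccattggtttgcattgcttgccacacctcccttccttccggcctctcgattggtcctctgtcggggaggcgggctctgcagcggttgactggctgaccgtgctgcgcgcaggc

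In the windows given, the 4 members that fell did not share these letters. ACSL3 held 3 GC boxes in the stretch shown, ECI1 2 and ABCD3 4. CPT1A held none in the only window given for it, and any other start of CPT1A was not examined. ETFB, which rose, had none in the stretch shown and a match elsewhere in the same window. GC content of the 250 bases before the start was 44.4% for CPT1A, below the median of 58% over all windows, and 75.2%, 72.8%, 74.4% and 67.2% for ACSL3, ECI1, ABCD3 and ETFB.

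Windows of 300 bases (250 before and 50 after a start) were given for 26 of the 32 members, 38 windows among 35116 in the table, and 6 motifs were searched on both strands as exact letters. A GC box was found in 26 of the 38 member windows (68.4%) and in 45.0% of all windows. The element bound by PPAR and RXR receptors (AGGTCANAGGTCA) was found in 0 member windows and in 0.0228% of all windows, and the element of estrogen-related receptors (TCAAGGTCA, which contains the AGGTCA of the former) in 0 and 0.353%. The cAMP response element (TGACGTCA) was found in 3 member windows, of ACAD9 and ACOX3, and in 1.85% of all, and the E-box (CACGTG) in 1 member window, of ACAD9, and in 7.26% of all. The core of the NRF1 element (GCGCATGCG) was found in 0 member windows and in 1.92% of all. These counts describe exact letters in short windows only.

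Across the 32 genes, wild-type levels ranged from 72.0 scaled RPKM for ETFB down to 0.00597 for ACADL. ETFB was followed by HADHA (49.1), ACADVL (33.2), ECHS1 (27.2), CPT1A (21.1) and ACSL3 (19.1). The library ranges of CPT1A and ACSL3 overlapped, so their order was not separated, while each of the 4 genes above them was separated from the next. Further down, the ranges of HADH and HADHB, of ACAT1 and ABCD3, of ABCD3 and ACSL5, of ACSL5 and HSD17B4, of ACAA2 and ETFDH, of ECI2 and ACSL1 and of each neighbouring pair from ACADM through SLC25A20 and ACADS to ACOX3 overlapped as well. Under 1 scaled RPKM lay CPT2 (0.986), ACOX2 (0.928), CPT1B (0.540), BDH1 (0.0884) and ACADL. RPKM divides by the length of all annotated exons, which was 3.82 times the longest coding transcript for ACAA1 and equal to it for ECHS1. Per kilobase of that transcript, ETFB stayed first (132), ACADVL came next (69.6) and then HADHA (61.6), and ACAT1 moved from rank 12 to rank 5.

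**Figure D3:**
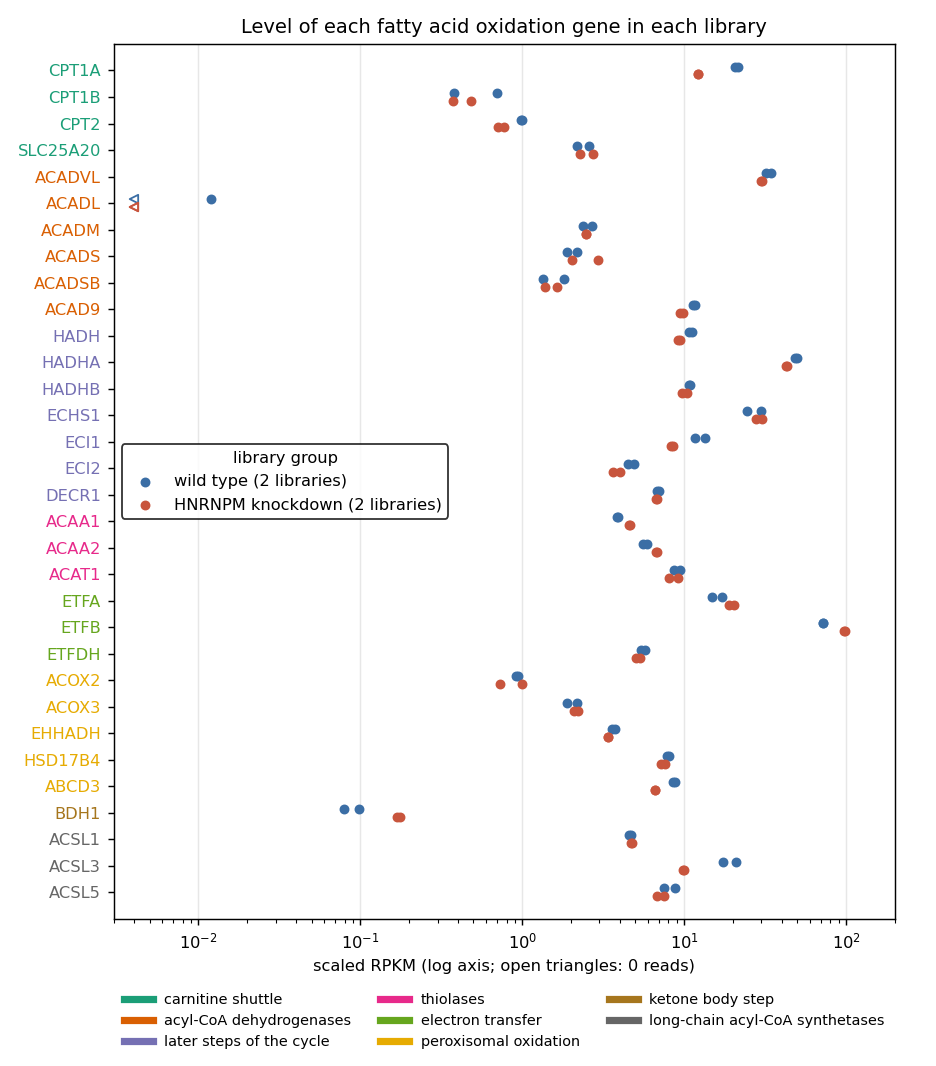
Scaled RPKM (log axis) of each of the 32 members in each library, grouped by role through the colour of the gene name; blue points are wild-type and red points knockdown libraries, and open triangles mark 0 reads. Levels run from ACADL, with 1 read in 1 library, to ETFB, at 71.9 to 97.9.

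In the carnitine shuttle, CPT1A (GRCh38 chromosome 11, 68754620 to 68844410, minus strand) fell and the other 3 members did not pass. CPT1A stood at 20.7 and 21.4 scaled RPKM in the wild-type libraries and at 12.2 in both knockdown libraries, from 934 to 2683 reads. The groups were well apart, and the knockdown mean was 57.8% of the wild-type mean (log2 fold change -0.79 ± 0.07, SE, n = 2 per group; limma adjusted p = 0.00419). CPT1A was called in all 14 alternative settings, with adjusted p between 5.54e-08 and 0.0372.

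CPT2, the inner-membrane enzyme that returns the acyl group to CoA, was measured at 0.976 and 0.996 in wild type and 0.769 and 0.704 in knockdown. Its groups did not overlap, but the change missed the threshold (log2 fold change -0.38 ± 0.16; limma adjusted p = 0.14). Of the exonic bases of CPT2, 12.0% are shared with genes on the opposite strand. The ratio of CPT1A to CPT2 was 21.2 and 21.5 in wild type and 15.8 and 17.3 in knockdown. SLC25A20, the carnitine-acylcarnitine carrier of the inner membrane, was the most abundant of the uncalled shuttle genes per kilobase of all annotated exons, while CPT2 was above it per kilobase of the longest coding transcript (3.33 against 2.52). It stood at 2.18 and 2.59 in wild type and at 2.28 and 2.72 in knockdown, with overlapping groups (log2 fold change 0.06 ± 0.16; limma adjusted p = 0.790).

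CPT1B, the muscle form of CPT1, had 20 to 55 reads per library and overlapping groups (log2 fold change -0.24 ± 0.30; limma adjusted p = 0.584). Its exons share 66.4% of their bases with the read-through gene CHKB-CPT1B on the same strand, so reads of the 2 genes cannot be fully separated. CPT1A made up 97.9% and 96.7% of the summed RPKM of the CPT1 genes in wild type and 96.5% and 95.5% in knockdown. The shuttle as a whole, summed over its 4 genes, stood at 24.3 and 25.7 in wild type and at 15.6 and 16.1 in knockdown, most of it CPT1A.

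Among the long-chain acyl-CoA synthetases, ACSL3 (chromosome 2, 222860934 to 222944639, plus strand) fell and ACSL1 and ACSL5 did not pass. ACSL3 stood at 17.4 and 20.9 scaled RPKM in wild type and at 9.79 and 10.01 in knockdown. The wild-type libraries differed from each other by more than the knockdown libraries did, and the groups did not overlap. The knockdown mean was 51.8% of the wild-type mean (log2 fold change -0.94 ± 0.10, SE, n = 2 per group; limma adjusted p = 0.00585), the largest decrease among the members. Like CPT1A it was called in all 14 alternatives, with estimates between -1.07 and -0.81.

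ACSL5, a synthetase of mitochondria and endoplasmic reticulum, was the most abundant uncalled member of the group, at 7.50 and 8.76 in wild type and 7.50 and 6.80 in knockdown. The groups nearly touched, and the log2 fold change was -0.18 ± 0.11 (limma adjusted p = 0.279). ACSL1, the major synthetase of liver, stood at 4.58 and 4.68 in wild type and 4.78 and 4.72 in knockdown, with an interval of the fold from 0.872 to 1.20. ACSL4, which prefers arachidonate and is not one of the 32 genes, stood at 11.2 and 11.3 against 10.4 and 9.89 and did not pass (limma adjusted p = 0.200). ACSL3 thus made up 42.8% and 45.7% of the summed RPKM of the ACSL genes in wild type and 30.2% and 31.8% in knockdown. ACSL4 had the largest share in knockdown replicate 1, at 32.0%, and ACSL3 in knockdown replicate 2, at 31.8% beside 31.5% for ACSL4.

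**Figure D4:**
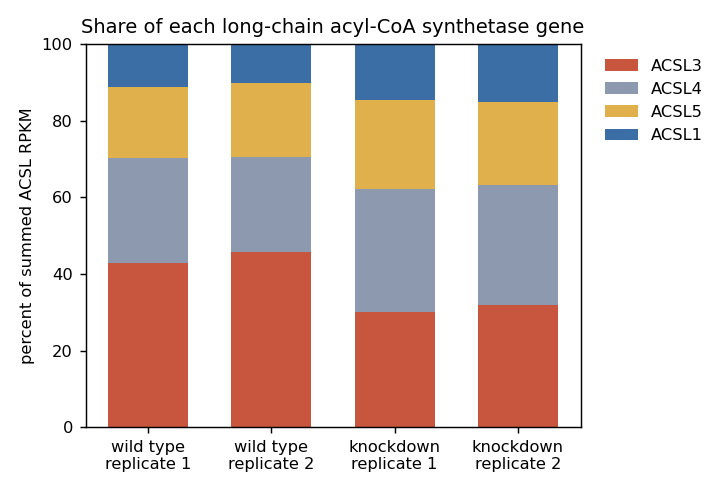
Share of the summed RPKM of the ACSL genes (vertical axis, percent) held by each gene in each library, stacked to 100; ACSL6, at under 0.02% in every library, is too small to see. The ACSL3 segment is 42.8% and 45.7% in the wild-type libraries and 30.2% and 31.8% in the knockdown libraries.

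The acyl-CoA dehydrogenases catalyse the first step of each turn and differ in the chain length they accept. None of the 5 tested passed limma's adjusted threshold; 1 had an unadjusted p under 0.05, and limma-voom on the recovered reads called the same gene, ACAD9, lower. ACADVL, the very long-chain enzyme and the most abundant of the group, stood at 32.1 and 34.4 in wild type and at 29.9 and 30.3 in knockdown. Its groups lay apart by a small margin (log2 fold change -0.14 ± 0.07; limma adjusted p = 0.182), and it held between 64.4% and 66.1% of the group's summed RPKM in every library. ACAD9, a dehydrogenase also needed to assemble respiratory complex I, went from 11.6 and 11.4 to 9.89 and 9.39 (log2 fold change -0.25 ± 0.08; limma adjusted p = 0.0628). A stricter filter brought that adjusted p to 0.0400.

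The medium- and short-chain enzymes were at low levels and their groups overlapped. ACADM, the medium-chain enzyme, stood between 2.38 and 2.69 in all 4 libraries. ACADS, the short-chain enzyme, was at 1.88 and 2.19 in wild type and 2.02 and 2.94 in knockdown, and its estimate of 0.25 became -0.03 without knockdown replicate 2. ACADSB, which acts on short branched chains, stood between 1.34 and 1.82. For ACADL the single read came from wild-type replicate 2, and a count of 0 in the other libraries, taken as a limit of 3 reads, allows up to 0.0380 RPKM in wild-type replicate 1 and 0.0524 and 0.0585 in the knockdown libraries (counting error only).

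In the hydratase, hydroxyacyl-CoA dehydrogenase, isomerase and reductase steps, ECI1 fell and the other 6 members did not pass. ECI1 (chromosome 16, 2239395 to 2252300, minus strand) shifts double bonds of unsaturated fatty acids so that the cycle can go on. It stood at 13.5 and 11.7 scaled RPKM in wild type and at 8.28 and 8.54 in knockdown, with no overlap. The knockdown mean was 66.6% of the wild-type mean (log2 fold change -0.58 ± 0.10, SE, n = 2 per group; limma adjusted p = 0.0136). The call was lost without knockdown replicate 1 (adjusted p = 0.0945), without knockdown replicate 2 (0.0688) and with no filter on low values (0.0588). ECI2, the related peroxisomal and mitochondrial isomerase, was at 4.87 and 4.49 against 4.05 and 3.62 and did not pass (log2 fold change -0.28 ± 0.11; limma adjusted p = 0.121). Of its exonic bases, 29.8% are shared with genes on the opposite strand.

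HADHA and HADHB encode the alpha and beta subunits of the mitochondrial trifunctional protein, and their RefSeq starts lie 307 bases apart on opposite strands of chromosome 2 (26244632 and 26244939). HADHA, the most abundant uncalled member of these steps, stood at 48.3 and 49.9 in wild type and at 42.9 and 42.5 in knockdown. The groups did not overlap, and the log2 fold change of -0.20 ± 0.06 missed the threshold (limma adjusted p = 0.0700), while limma-voom gave an adjusted p of 0.0317. HADHB was at 10.9 and 10.8 in wild type and at 10.4 and 9.65 in knockdown (log2 fold change -0.11 ± 0.08; limma adjusted p = 0.36). The ratio of HADHA to HADHB was 4.43 and 4.64 in wild type and 4.12 and 4.40 in knockdown. The groups nearly touched, at 4.43 and 4.40, and a change of this ratio was not tested. RPKM per annotated exon does not give the ratio of the subunits themselves.

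HADH, the short-chain hydroxyacyl-CoA dehydrogenase, stood at 11.2 and 10.8 in wild type and at 9.50 and 9.18 in knockdown (log2 fold change -0.23 ± 0.08; limma adjusted p = 0.0770). ECHS1, the short-chain enoyl-CoA hydratase, overlapped between groups, at 29.7 and 24.6 against 30.3 and 27.9. DECR1, the dienoyl-CoA reductase needed for polyunsaturated chains, varied between 6.72 and 7.04 over the 4 libraries, and the 95% interval of its fold ran from 0.842 to 1.12.

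The thiolases, which release acetyl-CoA, gave 0 calls by limma among 3 tested, with 1 unadjusted p under 0.05 (ACAA2) and 0 calls by limma-voom. ACAT1, the mitochondrial acetoacetyl-CoA thiolase and the most abundant of them, stood at 9.39 and 8.66 in wild type and at 9.16 and 8.01 in knockdown, with overlapping groups. ACAA1, the peroxisomal thiolase, was at 3.91 and 3.87 in wild type and at 4.60 and 4.55 in knockdown, and ACAA2, the mitochondrial one, at 5.61 and 5.88 against 6.72 and 6.78. Both were thus higher in each knockdown library than in each wild-type library, with log2 fold changes of 0.23 ± 0.10 (limma adjusted p = 0.138) and 0.23 ± 0.09 (0.108). On the linear scale the fold could lie anywhere from 0.991 to 1.38 for ACAA1 and from 1.01 to 1.36 for ACAA2. Of the exonic bases of ACAA1, 21.2% are shared with other annotated genes, most of them on the opposite strand.

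Of the electron transfer genes, ETFB (chromosome 19, 51345169 to 51366418, minus strand) rose and ETFA and ETFDH did not pass. ETFB stood at 72.2 and 71.9 scaled RPKM in wild type and at 97.4 and 97.9 in knockdown, from 7466 to 8960 reads, the deepest of the members. The knockdown libraries lay above the wild-type libraries by far more than the spread within either group, at 136% of the wild-type mean (log2 fold change 0.44 ± 0.06, SE, n = 2 per group; limma adjusted p = 0.00902). ETFB accounted for 19.7% of the members' summed RPKM in each wild-type library and for 27.1% and 27.6% in the knockdown libraries. The call was lost without knockdown replicate 1 (adjusted p = 0.0875) and without knockdown replicate 2 (0.102). The exons of ETFB share 6.36% of their bases with other annotated genes, on both strands.

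ETFA, the alpha subunit, was at 17.3 and 14.9 in wild type and at 20.3 and 18.8 in knockdown. It was higher in both knockdown libraries without passing (log2 fold change 0.28 ± 0.10; limma adjusted p = 0.0851), and it passed with limma-voom (0.0105), with a stricter filter (0.0473) and without wild-type replicate 1 (0.0425). The ratio of ETFB to ETFA overlapped between groups, at 4.18 and 4.82 in wild type and 4.79 and 5.20 in knockdown. ETFDH, the oxidoreductase that hands the electrons to ubiquinone, stood at 5.73 and 5.45 in wild type and at 5.08 and 5.37 in knockdown (log2 fold change -0.10 ± 0.09; limma adjusted p = 0.488). Of the exonic bases of ETFDH, 13.8% are shared with genes on the opposite strand. Summed, the 3 electron transfer genes went from 95.2 and 92.2 to 123 and 122, most of it ETFB.

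In peroxisomal oxidation, ABCD3 (chromosome 1, 94418455 to 94518666, plus strand), which carries long- and branched-chain substrates into the peroxisome, fell and the other 4 members did not pass. ABCD3 stood at 8.59 and 8.78 scaled RPKM in wild type and at 6.61 and 6.58 in knockdown. The groups were apart, at 75.9% of the wild-type mean (log2 fold change -0.39 ± 0.08, SE, n = 2 per group; limma adjusted p = 0.0231). Of the 5 called members this call was the least stable, being lost without knockdown replicate 1 (adjusted p = 0.130), without knockdown replicate 2 (0.107), without wild-type replicate 2 (0.0618) and with no filter on low values (0.0526).

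HSD17B4, the bifunctional enzyme of branched and very long chains, was the most abundant uncalled member of the group, at 7.88 and 8.05 in wild type and 7.23 and 7.63 in knockdown (log2 fold change -0.10 ± 0.08; limma adjusted p = 0.416). EHHADH, the bifunctional enzyme of straight chains, stood at 3.60 and 3.75 against 3.39 and 3.37, with an interval of the fold from 0.769 to 1.10. The oxidases of branched chains and bile acid intermediates were lower still: ACOX2 lay between 0.734 and 0.997 and ACOX3 between 1.89 and 2.20, each with overlapping groups.

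BDH1, which interconverts acetoacetate and beta-hydroxybutyrate, was barely detected, with 13 and 17 reads in wild type and 21 and 18 in knockdown. These correspond to 0.0791 and 0.0976 scaled RPKM against 0.176 and 0.169, with no overlap between the groups. The exact 95% counting intervals overlapped, reaching 0.135 and 0.156 RPKM in wild type and starting at 0.109 and 0.1001 in knockdown. BDH1 did not reach the threshold (log2 fold change 0.54 ± 0.20; limma adjusted p = 0.109), and limma-voom gave 0.96 with an adjusted p of 0.0363. On the recovered reads limma-voom called 7 members lower and 3 higher, beside 35.8% of all tested genes in either direction. Those it added to the 5 were CPT2, ACAD9 and HADHA, lower, and ETFA and BDH1, higher.

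Other genes of the pathway were taken from lists drawn up by function, with earlier results of these data known. The shares called in these lists are therefore descriptive, and their distance from the share of all tested genes was not tested. Beside 24.9% of all tested genes, the share called was 20% for other mitochondrial oxidation genes and 16.7% for other peroxisomal ones. It was 6.25% for peroxins, 12.5% for uptake and activation and 16.7% for other ketone body genes. For transcriptional and allosteric control it was 25%, and for the PPAR-alpha responsive list 85.7%. Of 25 other mitochondrial oxidation genes tested, 1 rose and 4 fell, with a median log2 fold change of -0.17. FLAD1, which makes the cofactor FAD, was at 15.6 and 14.6 in wild type and 11.3 and 11.2 in knockdown (log2 fold change -0.43 ± 0.08; limma adjusted p = 0.0158). PCCB, a subunit of propionyl-CoA carboxylase, fell by 0.40 ± 0.09 on the log2 scale (limma adjusted p = 0.0331), and ACSF2, an acyl-CoA synthetase of medium chains, rose by 0.44 ± 0.11 (0.0363). ACSF3, a malonyl-CoA synthetase of mitochondria, and GCDH, the glutaryl-CoA dehydrogenase, fell by 0.55 and 0.47 (limma adjusted p = 0.0442 and 0.0451).

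Of 18 other peroxisomal oxidation genes, 1 rose and 2 fell, with a median of -0.12. CAT, which destroys the hydrogen peroxide made by the oxidases, rose from 11.0 and 9.80 to 14.9 and 13.7 (log2 fold change 0.46 ± 0.09; limma adjusted p = 0.0219). NUDT19, a hydrolase of CoA, fell by 0.38 ± 0.09 (0.0353). Of 16 peroxins, the proteins that build peroxisomes, 1 rose and 15 did not pass, with a median of -0.06.

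Of 16 genes of fatty acid uptake and activation outside the 32, 2 fell and 14 did not pass, with a median of -0.04. SLC27A4, a fatty acid transport protein with acyl-CoA synthetase activity, stood at 16.6 and 17.3 in wild type and at 8.10 and 8.39 in knockdown, a clear separation (log2 fold change -1.03 ± 0.07; limma adjusted p = 0.00344). SLC27A2, of the same family, was lower at a low level, 0.772 and 0.859 against 0.437 and 0.366 (log2 fold change -0.87 ± 0.18; limma adjusted p = 0.0255). Of 6 other ketone body genes tested, 1 fell, SLC16A1, a monocarboxylate transporter of the plasma membrane (-0.38 ± 0.09; limma adjusted p = 0.0320), and 5 did not pass.

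Among 20 genes of transcriptional and allosteric control, 2 rose and 3 fell, with a median of 0.08. ACACA, the acetyl-CoA carboxylase that makes malonyl-CoA in the cytosol, stood at 16.3 and 17.7 in wild type and at 8.35 and 8.32 in knockdown (log2 fold change -1.02 ± 0.08; limma adjusted p = 0.00381). CREB3L3, a membrane-bound transcription factor of liver, rose from 16.7 and 22.1 to 35.2 and 36.1 (0.89 ± 0.14; limma adjusted p = 0.0113). PPARGC1B, a coactivator of oxidative genes, fell from 1.59 and 1.64 to 0.909 and 0.849 (-0.81 ± 0.15; 0.0177). PRKAB1, a subunit of AMP-activated kinase, fell by 0.40 (limma adjusted p = 0.0388).

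A list of 7 tested genes that textbooks give as responsive to PPAR-alpha outside oxidation held 4 that rose and 2 that fell, with a median of 0.86. PLIN2, a coat protein of lipid droplets, stood at 10.9 and 11.0 in wild type and at 26.1 and 24.8 in knockdown (log2 fold change 1.21 ± 0.07; limma adjusted p = 0.00298). G0S2, an inhibitor of the lipase ATGL, went from 19.4 and 21.5 to 56.7 and 51.1 (1.39 ± 0.09; limma adjusted p = 0.00314), and ANGPTL4, an inhibitor of lipoprotein lipase, from 48.9 and 50.7 to 89.8 and 96.3 (0.90 ± 0.07; 0.00379). PDK4, which restrains pyruvate oxidation, rose by 0.86 ± 0.23 (limma adjusted p = 0.0458). VNN1, a pantetheinase, and FADS2, a fatty acid desaturase, fell by 0.55 ± 0.07 and 0.54 ± 0.09 (limma adjusted p = 0.00748 and 0.0131). Without knockdown replicate 1, and likewise without knockdown replicate 2, 10 of 17 genes taken from outside the members (HNRNPM and up to 3 of each list) lost their call. Among those still called then were SLC27A4, ACACA, PLIN2, G0S2, ANGPTL4 and HNRNPM.

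**Figure D5:**
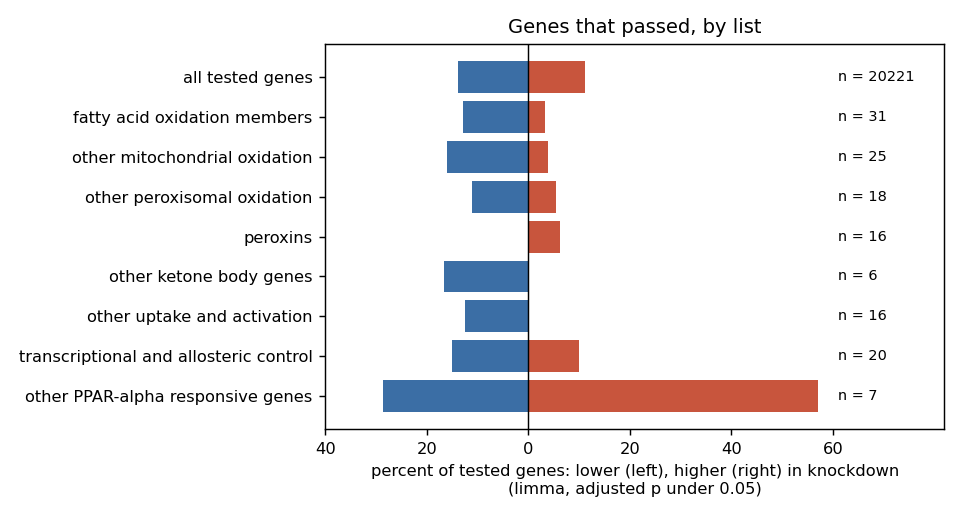
Percent of tested genes called lower (blue, to the left) and higher (red, to the right) in knockdown by limma at an adjusted p under 0.05, for all tested genes, the members and each list of other pathway genes, with the number tested at the right. The members stand at 16.1% in all beside 24.9% of all tested genes, and the PPAR-alpha responsive list holds 4 higher and 2 lower of 7. Members and lists were chosen with earlier results of these data known.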

How the data were processed

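RPKM values of 39306 gene names in 4 MHCC97H libraries were deposited by the authors, computed over annotated exons. Per the submitters' processing notes, the reads went through StringTie 1.3.2, edgeR 3.12.1, featureCounts, Subread 1.5.1 and Trimmomatic 0.36. Aligner, use of molecular identifiers and strand setting: not given in the sources used here. Genes overlapping on opposite strands may therefore share reads. The notes name mm9, but 93.6% of 26367 names had the GRCh38 coordinates of GENCODE v29. Whole reads were recovered for 100% of values within 0.01 of a read.

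RPKM were divided by TMM factors (30% and 5% trims) and log2(RPKM + 0.1) was fitted in R 4.3.3 by limma 3.58.1, with group as the sole term, a spread moderated along expression and Benjamini-Hochberg adjustment over 20221 genes. A gene was tested if 2 or more libraries reached a level worth 10 reads at median depth and the 4 libraries together held at least 15 reads. This scale understates changes of low genes. The procedure was tested on simulated data in which few genes changed and the spread was set alike for all genes. These settings differ from the data, so the simulation does not give the error rate here. For a single gene the smallest p of an exact permutation test, 2 against 2, is 0.333, so p-values rest on limma's pooled spread. Counting intervals are exact Poisson intervals at 95% and the limit given for a count of 0 is one-sided, at 3 reads; both cover counting error only.

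The members and lists were chosen with earlier results of these data known. Named were HNRNPM, all members, and from each list up to 3 called genes, those of smallest adjusted p; ACSL4, ACSF3, GCDH, PRKAB1, PDK4, VNN1, FADS2 and the genes of the closing section were named after values were seen, as were the level order by transcript length and the GC box. Some other genes of these lists are not reported here. ETFRF1, HMGCLL1, OXCT1, SLC27A6, FABP1 and CD3E were not analysed here. Alternatives were other scalings, pseudocounts, filters, limma-voom on the recovered reads, robust moderation, a replicate block, removal of the exon length trend, and each library left out.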

Additional observations from a re-analysis of the deposited data

How the results depend on the processing

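Depth was lowest for ACADL (1 read in all), BDH1 (13 to 21 reads per library) and CPT1B (20 to 55). Members called lower numbered 4, and 2 with no filter, 7 with limma-voom and 2 to 4 with 1 library left out. Members called higher numbered 1, and 2 with a stricter filter, 3 with limma-voom, 2 with the replicate block, 0 when members sharing exonic bases with other genes were left out (ETFB shares some) and 0 to 2 with 1 library left out. Over all genes, 2792 lower and 2240 higher became 1113 and 693 with no filter, and 821 to 1929 and 488 to 1827 with 1 library left out. Without TMM factors the split was 2234 lower and 2783 higher, with the median of all genes moved by 0.06. The median of the members, -0.10, was -0.037 without TMM factors and -0.037 with the exon length trend removed. Signs turned for some uncalled members, among them CPT1B and ACADS, whose main estimates of -0.24 and 0.25 were not near 0. Without TMM factors ACADM was at 0.036, ACADSB at 0.012 and DECR1 at 0.022, and with the length trend removed ACADM was at 0.037 and ACADSB at 0.022. With 1 library left out, CPT1B ranged from -0.61 to 0.13, SLC25A20 from -0.078 to 0.21, ACADM from -0.11 to 0.061, ACADS from -0.027 to 0.53, ACADSB from -0.26 to 0.16, ECHS1 from -0.032 to 0.24, ACAT1 from -0.15 to 0.0017, ACOX2 from -0.32 to 0.11 and ACOX3 from -0.021 to 0.17. The cause of these moves was not tested. Deviations of same-numbered libraries from their group means correlated at 0.06. With 2 libraries per group this cannot decide whether the numbers mark shared cultures. The block changed 1 call among members, ETFA (limma adjusted p = 0.0470).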

Other observations

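The genes of this paragraph were picked after their values were seen. PPARA, the receptor that switches on oxidation genes in liver, stood at 2.995 and 2.87 scaled RPKM in wild type and at 3.60 and 3.62 in knockdown, with no overlap and no call (log2 fold change 0.29 ± 0.11; limma adjusted p = 0.104). PPARGC1A, the coactivator best known for this programme, had 0 reads in 2 of the 4 libraries and was not tested. The others, wild-type replicate 1 and knockdown replicate 2, held 1 read each. PPARGC1B, its relative, was among the genes that fell. ACACB, the acetyl-CoA carboxylase at the mitochondrial surface, was at 1.69 and 1.84 in wild type and at 2.29 and 2.41 in knockdown (0.40 ± 0.13; limma adjusted p = 0.0801), beside the fall of ACACA to 49.0% of wild type. CROT, which makes carnitine esters in peroxisomes, went the other way without passing, from 1.27 and 0.841 to 0.676 and 0.567 (-0.66 ± 0.24; limma adjusted p = 0.0961).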
